A study of Mus musculus with 12 samples.

Results

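Axon guidance ligands and receptors were taken as the protein-coding genes of the RefSeq annotation of GRCm38.p6, which uses the same chromosome coordinates as mm10, whose symbol is Dcc or starts with Sema, Plxn, Nrp, Epha, Ephb, Efna, Efnb, Slit, Robo, Unc5 or Ntn, without the Slitrk genes. The rule gave 74 of 21887 protein-coding genes. Of these, 3 matched by their letters alone and were kept as a separate class, namely Nrp, Unc50 and Unc5cl. The other 71 were classed by family as 37 ligand genes and 34 receptor genes. The netrin-G genes Ntng1 and Ntng2 were counted with the netrins as ligands, although netrin-G1 itself has a ligand, encoded by Lrrc4c. A gene was counted as carrying a peak when its body shared at least 1 bp with a row of a peak list.

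The lists came from chromatin immunoprecipitation and sequencing of H3K36me2, the dimethylation of lysine 36 of histone H3 that NSD1 and related methyltransferases deposit. Somatosensory cortex of mice aged 2.5 months gave 12 libraries in 4 groups of 3, immunoprecipitated and input chromatin from control (Ctrl) and from conditional knockout (cKO) animals. The cKO animals were labelled Nsd1Nex-cKO. Nex-driven Cre recombines in excitatory neurons of the forebrain, so interneurons, glia and vascular cells of the same tissue keep the gene. In each control group 2 libraries were labelled Nsd1fl/+ and 1 was labelled Nsd1fl/fl, and no Cre was named for them, while the peak names inside the control list read WT. All 6 libraries of a genotype named the same list, so values had no replicate error and no test across animals could be made. The control list held 231 peaks and the cKO list 3491, read depth was unknown, and the lists give no expression values with which to check the cell types. A difference in the number of cells carrying the mark and a difference in the mark per cell cannot be told apart in whole tissue.

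Guidance cues steer growing axons and are read by receptors on the growth cone. Semaphorins act through plexins, with neuropilins as co-receptors for the secreted class. Slits act through roundabout (Robo) receptors, netrins attract through DCC and repel through UNC5 receptors, and ephrins on one cell bind Eph receptor kinases on another. In the cortex these families shape callosal, corticofugal and thalamocortical projections, and several stay active at adult synapses. H3K36me2 is usually spread over long stretches of gene bodies and intergenic chromatin, so single narrow peaks sample it only in part.

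In cKO cortex 11 of the 74 genes carried a peak (14.9%, Wilson 95% interval 8.51 to 24.7, counting error only), against 5.47% of all protein-coding genes, and 13 peaks lay in them. The genes were the ligands Sema3a, Sema5a, Slit1 and Slit3 and the receptors Plxna2, Plxna4, Plxnc1, Ephb2, Robo1, Unc5d and Dcc. Long genes carry peaks more often. The 200 other protein-coding genes nearest in length to each member, fewer for the 4 longest members with 111 as the lowest number, gave an expected 10.1 genes (13.7%). The count thus lay within 1 gene of that for genes of like length. In control cortex 0 of the 74 genes carried a peak (Wilson upper bound 4.93%), against 0.26% of all protein-coding genes, with 0.521 genes expected from length. At the low rate of the control list, 0 genes is near what length alone gives.

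None of the 13 peaks had a q-value under 0.05, the caller's p adjusted over the genome. At that level 1.16% of protein-coding genes carried a cKO peak and 0.0137% a control peak, and 1.79 members with a cKO peak would be expected from length. At a −log10 q of at least 2 the shares were 0.676% and 0.00457%. The lowest q-value in a guidance gene was 0.0962, in Robo1, and 4 of the 13 peaks had a q-value of 1. The assignments to single genes below are therefore weak calls, each supported by the caller's unadjusted p alone.

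The base composition at the starts of these genes is shown for 2 of them, Plxnc1 because its peak lay nearest to an annotated start and Slit3 because its peak had the highest fold enrichment. The 250 bases before each start are printed 5′ to 3′ on the gene's strand, from RefSeq on GRCm38.p6 (Plxnc1 on the minus strand, chr10:94944846-94945095, and Slit3 on the plus strand, chr11:35121206-35121455), with every CG dinucleotide in capitals.
Plxnc1: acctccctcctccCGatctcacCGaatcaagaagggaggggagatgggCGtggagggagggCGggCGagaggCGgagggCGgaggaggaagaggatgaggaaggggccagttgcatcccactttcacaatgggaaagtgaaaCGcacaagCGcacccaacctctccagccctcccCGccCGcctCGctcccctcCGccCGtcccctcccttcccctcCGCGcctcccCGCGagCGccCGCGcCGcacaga
Slit3: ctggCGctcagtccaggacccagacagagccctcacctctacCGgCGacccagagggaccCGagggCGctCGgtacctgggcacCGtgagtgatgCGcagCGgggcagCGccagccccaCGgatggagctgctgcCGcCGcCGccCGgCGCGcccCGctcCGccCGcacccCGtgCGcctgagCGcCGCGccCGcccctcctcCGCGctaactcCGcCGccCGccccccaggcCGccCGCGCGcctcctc
The Plxnc1 stretch holds 22 CG dinucleotides and the Slit3 stretch 35, counted without overlap and equal on both strands. Across 79 annotated starts of 63 members the median was 15, against 10 across 21184 starts of 17429 other protein-coding genes, and 98.7% and 93.4% of these stretches held at least 1. Starts of the 7 members with a cKO peak and an entry had a median of 18, and starts of the 56 members without a peak had 15. Both medians lay above that of the other genes. Of the 79 starts, 0 had a control or cKO peak within 5 kb of the promoter window. Among starts of other protein-coding genes 1.78% had a cKO peak and 0.132% a control peak there, so 0 is near the background. Only 29 of the 79 starts coincided with an end of the gene body used here. Dcc, Plxna4, Slit1 and Unc5d, which carried cKO peaks, had no annotated start. The 5′ ends of all genes with a peak were therefore not covered.

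Among the slits, secreted repellents of commissural and cortical axons, 2 of 3 genes carried a cKO peak, with 0.785 expected from length. Slit3 (chromosome 11, 35121456 to 35708507) carried a pair of peaks 91.3 kb apart. The first (35311489 to 35311826) was 338 bp wide, with a fold enrichment of 3.40, a −log10 p of 4.58 and a q-value of 0.144. Its fold was the highest of the 13 and at or above that of 91.9% of cKO peaks. That peak also overlapped the annotated gene Gm46277, and it was the only one of the 13 to overlap a further gene. The second Slit3 peak (35403104 to 35403560) was 457 bp wide, the widest of the 13, with a fold of 3.16 and a q-value of 0.499. Slit1 (chromosome 19, 41597824 to 41747275) carried 1 peak of 182 bp at 41732962 to 41733143, 14.2 kb from the upper end of the gene, with a fold of 3.06 and a q-value of 0.675. Slit2 had 0 peaks in its 326 kb, and the nearest cKO peak lay 13.1 kb outside it.

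Among the roundabout receptors, 1 of 4 genes carried a peak, with 1.01 expected. Robo1 (chromosome 16, 72027518 to 73047491) carried a pair of peaks 83.6 kb apart, both far from its ends, at 58.5% and 66.7% of its length from the lower coordinate. Its 1 annotated start lay inside the body between them, 39.2 kb from the first peak and 44.7 kb from the second. The peak at 72623886 to 72624040 had the lowest fold of the 13, 2.31, but the highest −log10 p, 4.83. The peak at 72707611 to 72707996 had a higher fold, 2.81, and a q-value of 1. Fold and p thus ranked this pair in opposite orders. Robo2, at 1555 kb the longest of the 74 genes, had 0 peaks. Of the 111 genes nearest to it in length, 100 of them shorter, 48.6% carried a cKO peak. Robo3 and Robo4, of 17.4 kb and 12.1 kb, had 0 as well. The slits and roundabouts together had 5 peaks in 3.67 Mb of gene body, or 1.36 per Mb (exact Poisson 95% interval 0.443 to 3.18).

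Among the 20 semaphorins, 2 carried a peak, with 2.38 expected. Sema3a (chromosome 5, 13124822 to 13603485) encodes a secreted repellent that signals through neuropilin-1 and class A plexins. Its peak at 13293976 to 13294231 had a fold of 2.78 and a q-value of 1. Sema5a (chromosome 15, 32244813 to 32696341) encodes a transmembrane semaphorin with thrombospondin repeats. Its peak at 32336297 to 32336634 had a fold of 2.78 and a q-value of 1. Both lay below the median fold of the cKO list, 2.82. Sema6d, the longest semaphorin gene at 578 kb, had 0 peaks, and the 6 class 4 genes, of 12.1 to 108 kb, had 0 with 0.32 expected.

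Of the 9 plexins 3 carried a peak, with 0.965 expected, a difference that was not tested. Plxna2 and Plxna4, receptors for class 3 and class 6 semaphorins, were 2 of the 4 class A genes, with 0.64 expected. The Plxna2 peak (chromosome 1, 194749720 to 194749938) had a fold of 2.47 and the lowest −log10 p of the 13, 3.06. The Plxna4 peak (chromosome 6, 32461952 to 32462302) had a fold of 2.95 and a q-value of 0.769. Plxnc1 encodes the receptor for SEMA7A. Its peak (chromosome 10, 94934563 to 94934709) was 147 bp wide, the narrowest of the 13, with a fold of 2.94 and a q-value of 0.811. This peak lay 10.2 kb from the annotated start. The 3 class B genes, 16.0 to 26.5 kb long, had 0 peaks, with 0.115 expected. The co-receptor genes Nrp1 and Nrp2, of 147 kb and 115 kb, also had 0, with 0.305 expected. Both counts of 0 are near what length alone gives. Within the class A genes the peaks lay in genes of 197 kb and 444 kb and not in Plxna1 and Plxna3, of 46.3 kb and 16.4 kb.

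Netrins and their receptors had 2 of 11 genes with a peak, with 2.03 expected, and both were receptors. Unc5d (chromosome 8, 28646717 to 29219671) encodes an UNC5 receptor known as a marker of upper-layer cortical neurons. Its peak at 28867170 to 28867453 had a fold of 3.30, at or above that of 88.5% of cKO peaks, and a q-value of 0.296. Dcc (chromosome 18, 71253613 to 72351228) encodes the netrin receptor needed for axons to cross the midline. Its peak at 71907277 to 71907561 had a fold of 2.55 and a q-value of 0.783. All 6 netrin genes had 0 peaks, with 0.735 expected, among them Ntn1 (177 kb) and the membrane-anchored netrin-G1 gene Ntng1 (370 kb). A cKO peak lay 2.27 kb outside Ntn5, and Ntn5 was the only member without a peak in its body that had one within 10 kb.

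Ephrins and Eph receptors had 1 of 22 genes with a peak, with 2.56 expected from length. Ephb2, a receptor for ephrin-B ligands at forebrain synapses and in commissural axons (chromosome 4, 136647536 to 136836326), carried a peak of 343 bp at 136738380 to 136738722, near the middle of the gene at 48.2% of its length. It had a fold of 3.04 and a q-value of 0.529. The 9 EphA receptor genes had 0 peaks with 1.56 expected, including Epha6 (969 kb), Epha5 (363 kb) and Epha3 (321 kb). The 5 genes of at least 200 kb, those 3 with Ephb1 and Efna5, had 0 peaks with 1.63 expected. The density was 0.321 peaks per Mb (0.00812 to 1.79) over 3.12 Mb, and its interval includes the density in other protein-coding genes, 1.33 per Mb. A count of 1 is thus low for genes of this length, but not outside counting error. The intervals of 3 groups, semaphorins with plexins and neuropilins (1.28 per Mb, 0.415 to 2.98), netrins with their receptors (0.692, 0.0838 to 2.50), and slits with roundabouts, each overlapped that of the Eph group, so no order of the families is shown.

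**Figure D1:**
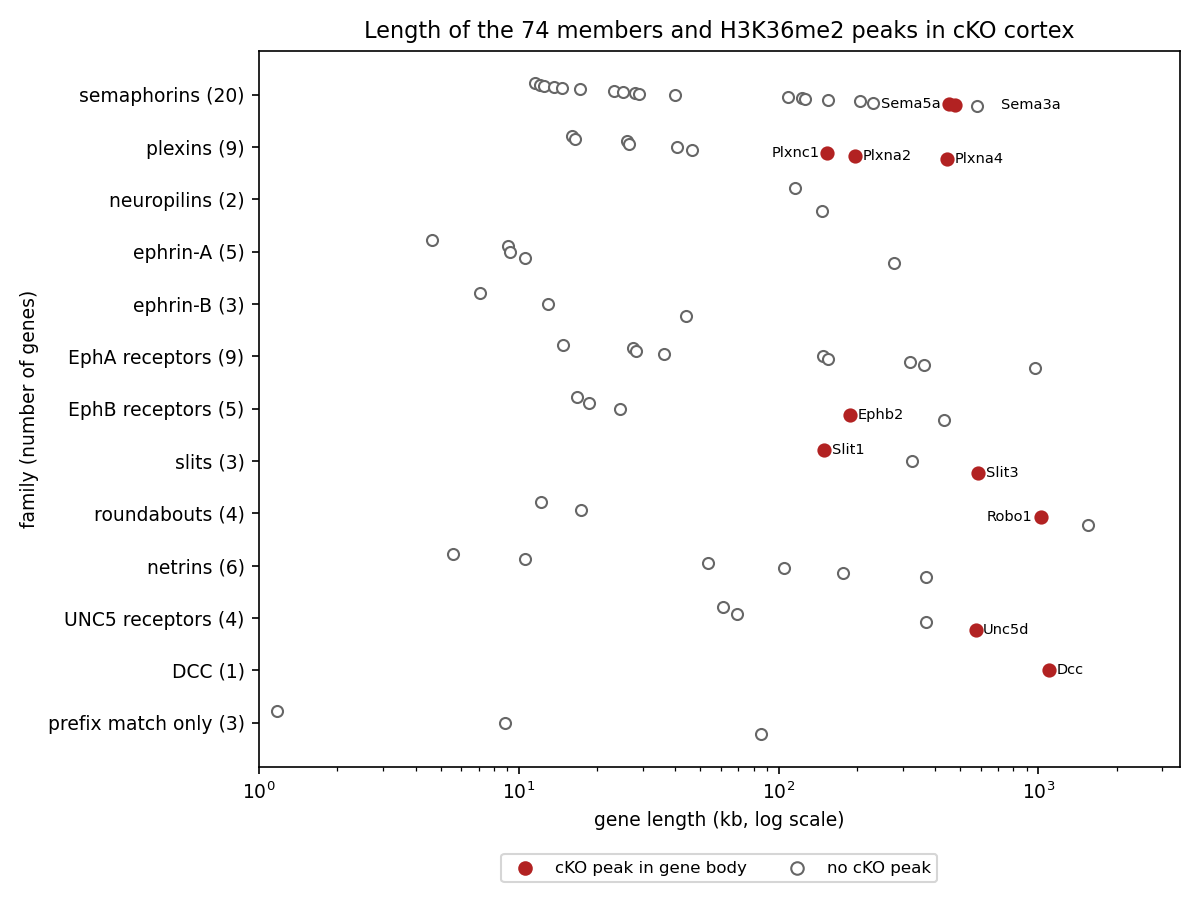
Length of each of the 74 genes (kb, log scale) by family, with filled points for genes that carry a cKO peak and open points for the rest. Filled points are all at 149 kb or longer, and every family also holds open points except DCC, which has 1 gene.

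**Figure D2:**
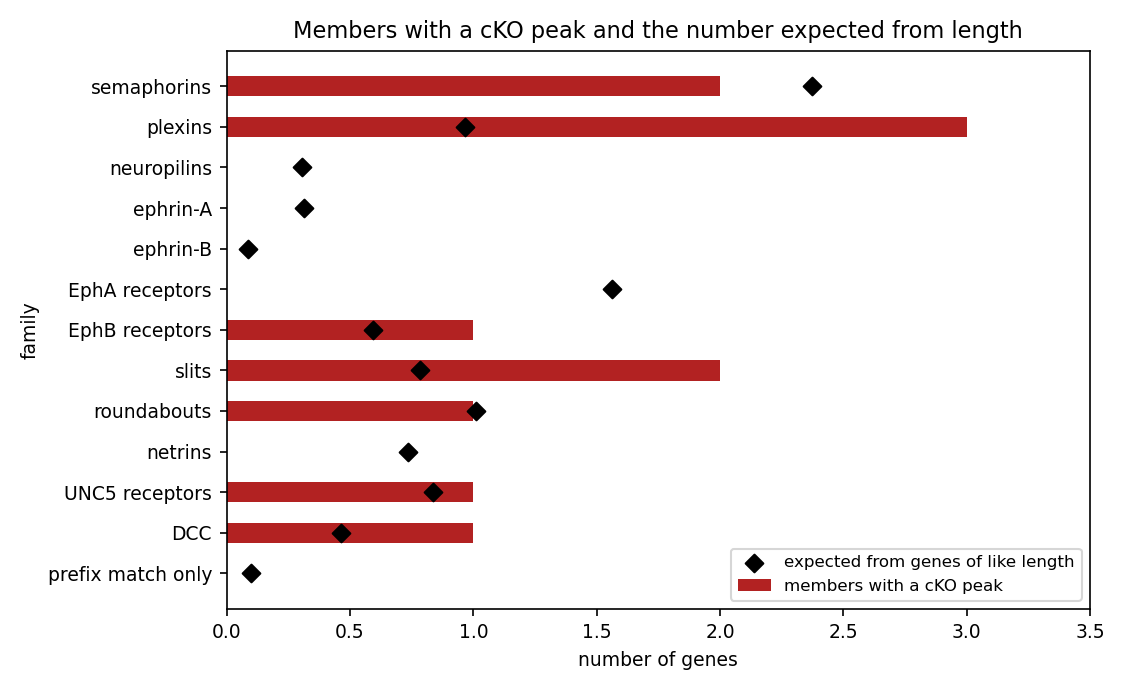
Number of genes with a cKO peak in each family (bars) and the number expected from other protein-coding genes of like length (diamonds). The plexins reach 3 against 0.965 expected, and the EphA receptors have 0 against 1.56, and neither difference was tested.

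By length, the 41 genes under 100 kb carried 0 cKO peaks, with 1.57 genes expected from length and 3.53% of 19417 other genes of that size carrying one. From 100 to 200 kb 4 of 14 members carried one (28.6%, 11.7 to 54.6), against 14.7% of 1425 other genes, and from 200 to 400 kb 0 of 8 did (upper bound 32.4%), against 25.6% of 630. At 400 kb and over 7 of 11 did (63.6%, 35.4 to 84.8), against 37.8% (32.8 to 43.1) of 341. The classes thus fell on either side of the other genes, with intervals that overlapped those of the other genes in each class. The 19 members of at least 200 kb had 7 with a peak (36.8%, 19.1 to 59.0), against 29.9% of 971 other genes. Per Mb of gene body, members held 0.95 cKO peaks (0.506 to 1.62) over 13.7 Mb, against 1.33 (1.26 to 1.41) over 1018 Mb of other protein-coding genes, and 0 control peaks (up to 0.27) against 0.0903. Receptors had 7 of 34 genes with a cKO peak with 5.74 expected, and ligands 4 of 37 with 4.295 expected.

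**Figure D3:**
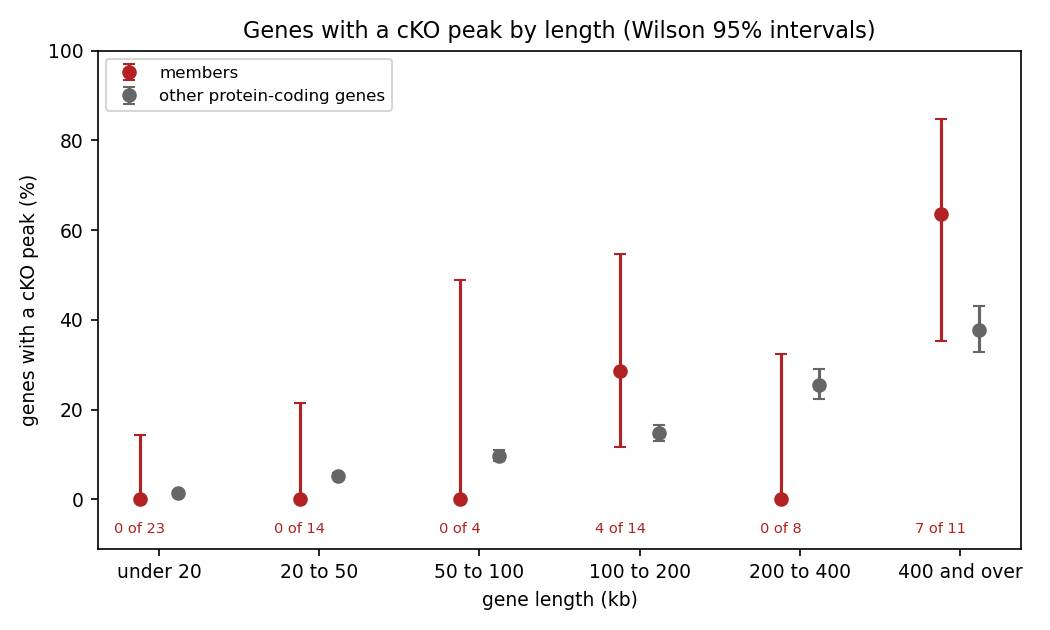
Share of genes with a cKO peak by gene length, for guidance genes (red, with counts beneath) and all other protein-coding genes (grey), with Wilson 95% intervals. Shares of other genes climb with length, and the guidance genes lie at 0 of 8 from 200 to 400 kb and at 7 of 11 from 400 kb.

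The 11 genes with a cKO peak ran from 149 to 1098 kb, with a median of 452 kb, and lay on 11 chromosomes, whereas the 63 without a peak had a median of 29.0 kb. Of the 13 peaks, 8 lay over 100 kb from the nearer end of the gene and 2, those of Slit1 and Plxnc1, lay in the outer 10% of its body at either end. That is 15.4% of the 13, against 17.5% of 435 positions of peaks in other protein-coding genes of the same length range. The nearest other peak of either list was 83.6 kb to 1595 kb away, with a median of 305 kb. Of the 13, 0 belonged to a dense group of peaks (3 or more others within 100 kb), and of the peaks in other protein-coding genes 7.95% did, so that 0 is near the background. Genes with a peak had a median of 4 other protein-coding genes within 500 kb (0 to 23), against 15 in members without one and 2.5 in the 12 members of at least 200 kb without one. Sparse surroundings were thus common to long members with and without peaks. No exon positions were used here, so exonic and intronic peaks were not separated.

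**Figure D4:**
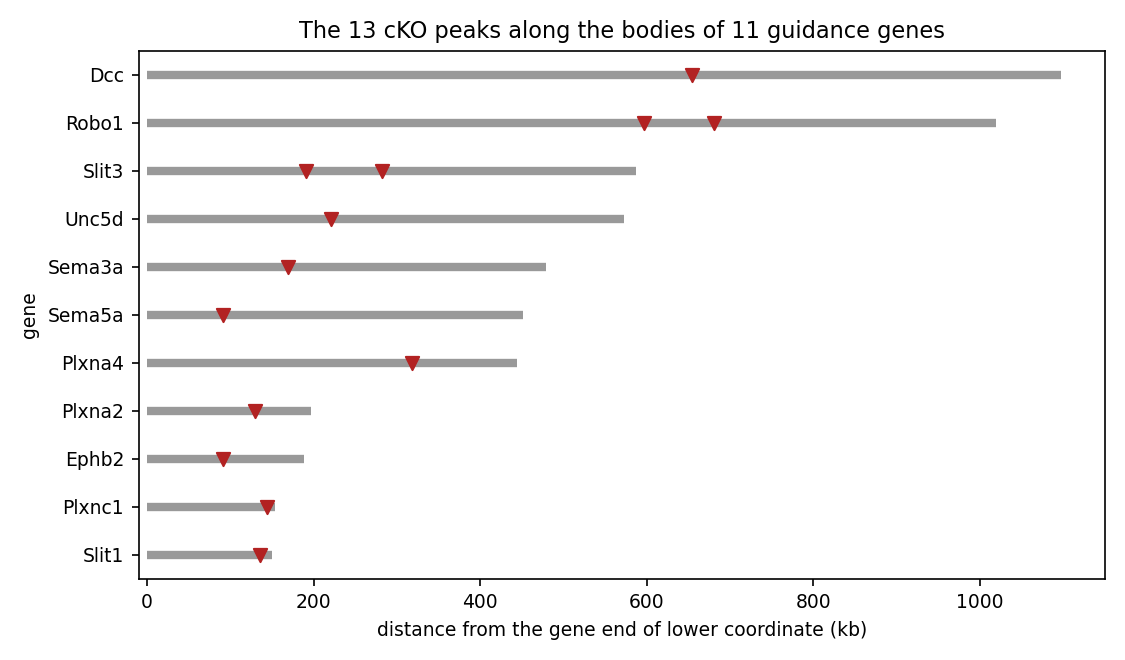
The 13 cKO peaks (triangles) along the 11 gene bodies (bars), in kb from the end of lower coordinate. The pairs in Robo1 and Slit3 lie 83.6 kb and 91.3 kb apart, and only the Slit1 and Plxnc1 peaks lie in the outer 10% of a gene.

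Fold enrichment in the 13 peaks, the authors' own value against the background local to each peak, ran from 2.31 to 3.40 with a median of 2.94. The whole cKO list had a median of 2.82 and a maximum of 5.998. Of the 13, 7 were at or above the list's median. The −log10 p ran from 3.06 to 4.83 with a median of 3.46, against 3.80 in the whole list and 3.81 in peaks of protein-coding genes, 19.8% of which had a q-value under 0.05. Set among cKO peaks whose fold differed by at most 0.1, 11 of the 13 had a −log10 p in the lower 50%, whereas 56.9% of all cKO peaks and 61.9% of peaks in other protein-coding genes of at least 100 kb did. The exceptions were the first Robo1 peak, at 69.4% of that range, and the first Slit3 peak, at 51.3%. This measure was added after the values were seen, and the difference, which rests on 13 peaks, was not tested. The guidance genes thus had a median fold above that of the list and a median −log10 p below it. Widths ran from 147 to 457 bp with a median of 285 bp, against 250 bp in the list.

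**Figure D5:**
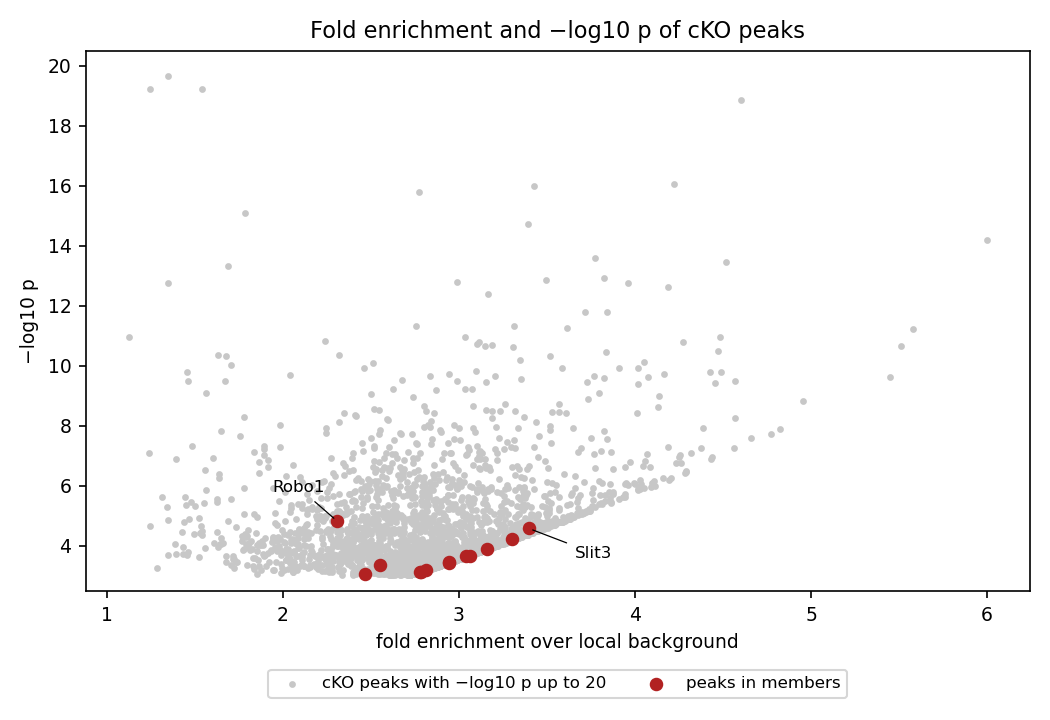
Fold enrichment (x) and −log10 p (y) of cKO peaks, with the 13 peaks of guidance genes in red, and 39 cKO peaks with a −log10 p above 20 outside the axes. Most red points lie along the lower edge, and the Robo1 peak at fold 2.31 and −log10 p 4.83 lies above it.

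Of the 74 genes, 0 had a control peak in the body or within 100 kb, against 1.85% of other protein-coding genes, a background so low that the count says little about these genes. The nearest control peaks lay 106 kb from Sema3c and 207 kb from Sema3d on chromosome 5. Sema3a, the gene with a cKO peak that lay nearest to a control peak, was 329 kb from it. For the 2 members on chromosome 13, Sema4d and Unc5a, the control list held 0 peaks on the whole chromosome. With cKO peaks, 11 of the 63 genes without one in the body had one within 100 kb (17.5%), against 29.2% of other protein-coding genes without one in the body, a difference that was not tested. Examples were Epha4 (10.99 kb away), Ntn3 (16.0 kb) and Sema4a (38.0 kb). With genes that carried a cKO peak in the body included, the shares were closer, at 29.7% of members and 33.0% of other protein-coding genes. Neither comparison was matched for length. The control list was shorter by 3260 peaks and was scored against its own background, so 0 against 11 genes was not tested and does not measure a gain of the mark.

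Genes that act with these families were counted in the same way. These lists were chosen with some of their peaks already known, so they are not independent support. Their comparison genes left out the 74 members but not the listed genes themselves. Of 26 other guidance cues, receptors and adhesion molecules, 3 carried a cKO peak with 3.15 expected from length. They were Cntn2, a contactin of axon fascicles (fold 3.26), Dscam, an adhesion molecule that also binds netrin (folds 3.06 and 2.91), and Lrrc4c, the netrin-G1 ligand (fold 3.00). Of 54 intracellular effectors, 6 did with 7.66 expected, among them Tiam1, a Rac exchange factor (3.32 and 2.69), Chn2, a Rac GTPase-activating protein of the chimaerin family (3.19), and Farp2, an exchange factor below plexin A receptors (2.89). The Farp2 peak (chromosome 1, 93604741 to 93604932) had a −log10 q of 3.43, above any peak in the 74 genes. In controls 0 genes of either list carried a peak, with 0.128 and 0.3 expected.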

How the data were processed

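H3K36me2 libraries and inputs of control and cKO somatosensory cortex were represented by 1 list of broad peaks per genotype. The submitters' processing notes name cutadapt, Bowtie2 2.4.4, MACS2 and mm10, and give no role or setting for any of them. Pooling, filters and the calling command are not given in the sources used here. In the deposited lists the fold enrichment is a ratio over the local background, per the broadPeak layout. The authors deposited the caller's −log10 p and −log10 q (before and after adjustment), with a lowest −log10 p of 3.02 in the cKO list and 3.08 in the control list. The score deposited by the authors repeats −log10 p and was not used. Depth was unknown, which limits how firmly a missing peak can be read.

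Positions were made 1-based and overlapped with RefSeq gene bodies of GRCm38.p6. Length was accounted for by the 100 shorter and 100 longer other protein-coding genes nearest to each gene. For the 4 longest members fewer than 100 longer genes existed, so their comparison genes were mostly shorter. Wilson and exact Poisson 95% intervals cover counting error only. Every member with a peak was named, with the longest members without one and up to 4 genes per related list by fold, of which 1 is not reported here; further members without peaks were named after their values were seen. Members and lists were chosen with earlier results of these data known. Overlap counting and length matching were tested on simulated data. The alternatives were other peak thresholds, overlap rules, gene windows and length matches. Python 3.11.15 was used with pandas 2.3.3 and scipy 1.17.1.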

Additional observations from a re-analysis of the deposited data

How the results depend on the processing

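The count of 11 guidance genes with a cKO peak fell to 0 with peaks of a −log10 q of at least 2 (1.03 expected from length), to 0 with a q-value under 0.05, and to 6 with folds at or above the list's median (6.05 expected). It stayed between 11 and 12 with peak centres, with at least 50% of a peak inside the gene, with flanks of 1 kb or 10 kb, without dense groups of peaks, on autosomes alone and, added after the data were seen, without the 3 matches by letters alone. The control count was 0 under each of these. The expected number for cKO peaks, 10.1, ran from 10.04 to 10.8 under other length matches and was 4.02 with no length match. Peaks per Mb of member bodies in cKO fell from 0.95 to 0 at a −log10 q of at least 2. No paired analysis was possible because the libraries of a genotype share a single peak list, and for the same reason no replicate could be left out. Depth limits all counts, since a gene without a peak may still carry the mark.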
